A study of Mus musculus with 96 samples.

Results

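Kcnq3 and Kcnq5 encode Kv7.3 and Kv7.5, pore-forming subunits of voltage-gated potassium channels that the anticonvulsant retigabine opens. Both members were looked up by symbol among the 38887 genes of a Patch-seq expression table, and 2 of 2 were found. In Patch-seq, a neuron of a brain slice is recorded through a patch pipette, its cytoplasm is drawn into that pipette, and the RNA is sequenced as 1 library per neuron. The neurons came from the lateral superior olive (LSO), an auditory brainstem nucleus, of juvenile C57BL/6 J mice of both sexes in the second postnatal week. Principal LSO neurons (pLSOs), which project upwards in the auditory pathway, were divided by their firing into 41 Onset and 11 Sustained neurons. Lateral olivocochlear neurons (LOCs), which project to the cochlea and fired with a delay, numbered 28. A further 8 libraries were negative controls, for which a pipette touched the slice with its tip and was then processed like the others. No treatment or genetic change is named for any group. No animal is named for any neuron, so each group counts as 1 sample, no test between groups was made, and SDs describe the spread over neurons.

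Kv7 subunits assemble as tetramers into channels that open slowly near the resting potential and do not inactivate. The current they carry in many neurons, the M-current, opposes repetitive firing and gives a neuron a stable resting potential. Kv7 channels need the membrane lipid PIP2 to open. Receptors coupled to the G protein Gq activate phospholipase C, which splits PIP2, and the channels then close. Retigabine acts on a tryptophan in the fifth transmembrane segment (S5) of the subunits, and this residue is present in Kv7.3 and Kv7.5.

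Kcnq3 (ENSMUSG00000056258) lies on the minus strand at chr15:65986387-66286642, and Kcnq5 (ENSMUSG00000028033) on the minus strand at chr1:21398403-21961942 (GRCm38, Gencode vM21). The exonic length of all transcripts together is 14708 bases for Kcnq3 and 7689 bases for Kcnq5. The antisense gene Gm27153 lies within Kcnq3 without sharing exonic bases, and Gm26580 on the opposite strand shares 237 exonic bases with Kcnq5; both were at 0 in every neuron. The stretch of Kcnq5 coding sequence that holds the tryptophan on which retigabine acts is shown with the codon for tryptophan in capitals. It lies in exon 5, at chr1:21505363-21505425, and the codon is number 271 of 933 in the transcript ENSMUST00000029667.
Kcnq5 S5: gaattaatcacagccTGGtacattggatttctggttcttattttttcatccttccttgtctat

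The values were deposited as TPM, a name for transcripts counted relative to gene length and library size. As set out below, they followed each gene's own length only weakly. They are listed as whole numbers, so that 0 stands for any value below 0.5 TPM. A gene was counted as detected at 1 TPM or more. Neurons had medians of 2488 (Onset), 2618 (Sustained) and 2394 (LOC) detected genes, and the negative controls had 821. Markers of each class were compared with the labels. The summed level of 6 pLSO markers had a median of 626 TPM in Onset neurons, 224 TPM in Sustained neurons and 2 TPM in LOCs. That of 8 LOC markers had a median of 1628.5 TPM in LOCs and of 0 in both pLSO groups. The pLSO sum was above the LOC sum in 50 of 52 pLSOs, and the LOC sum was the higher in 28 of 28 LOCs. The lowest pLSO sum was 73 TPM in Onset neurons and 15 TPM in Sustained neurons. The LOC sum reached 54 TPM in Onset neurons and 75 TPM in Sustained neurons, so the pLSOs that fell short were Sustained. These markers were chosen with results of these neurons known. The sums add deposited values of different genes, which may not share a scale, as set out below. The rule that chose the genes left out 8 of the 96 libraries. Not all of these went against their labels by marker, since cell_78 and cell_85, labelled as LOCs, had Calca at 827 and 692 TPM.

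Kcnq3 was found in 12 of 41 Onset neurons, in 6 of 11 Sustained neurons, and in 3 of 28 LOCs. In Onset neurons, Kcnq3 ranged from 0 to 28 TPM with a median of 0. The values of the 12 neurons that had it were 28, 22, 21, 17, 13, 12, 8, 4, 4, 2, 1 and 1 TPM. Most Onset neurons were thus at 0, and the others spread between 1 and 28 TPM.

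In Sustained neurons, Kcnq3 ranged from 0 to 21 TPM with a median of 2, and the neurons that had it were at 21, 18, 7, 6, 6 and 2 TPM. In LOCs it ranged from 0 to 12 TPM with a median of 0, and the neurons that had it were at 12, 5 and 1 TPM. Of the 8 negative controls, 7 were at 0 and 1 had 1 TPM. The groups overlapped in full, since each held neurons at 0, and the highest LOC lay below 5 Onset and 2 Sustained neurons.

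**Figure D1:**
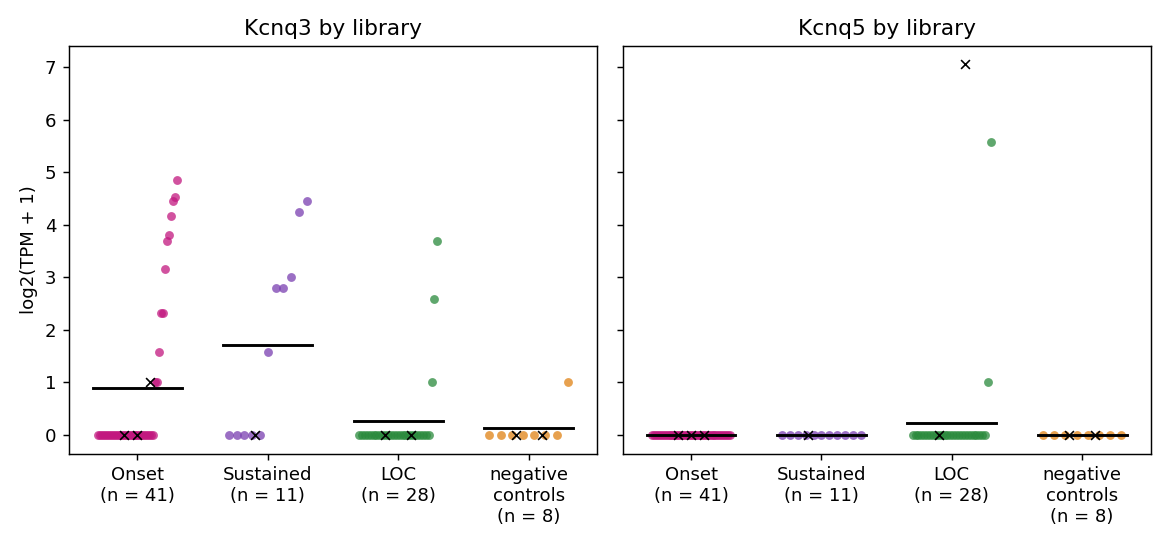
Level of Kcnq3 (left) and Kcnq5 (right) in log2(TPM + 1) in every library, by group, with n for the libraries used. Coloured points are libraries, bars are group means of log2(TPM + 1), and crosses are the 8 libraries left out. Kcnq3 reached 28 TPM in Onset neurons and 12 TPM in LOCs, and the highest Kcnq5 value, 132 TPM, was in a library left out.

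As a share of neurons, Kcnq3 was detected in 29.3% of Onset neurons (exact Clopper-Pearson 95% interval 16.1% to 45.5%) and 54.5% of Sustained neurons (23.4% to 83.3%). In LOCs the share was 10.7% (2.27% to 28.2%). The negative controls had a share of 12.5% (0.316% to 52.7%). The intervals, which cover counting error only, overlapped between all groups. The share in LOCs was not above that in the negative controls, which had fewer detected genes. With the 8 libraries put back by their labels, 13 of 44 Onset neurons, 6 of 12 Sustained neurons, 3 of 30 LOCs and 1 of 10 negative controls had Kcnq3. Over both pLSO groups, 18 of 52 neurons (34.6%, 21.97% to 49.1%) had Kcnq3.

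The mean level of Kcnq3 was 3.24 ± 7.04 TPM (SD over neurons, n = 41) in Onset neurons, 5.45 ± 7.50 TPM (n = 11) in Sustained neurons and 0.643 ± 2.42 TPM (n = 28) in LOCs. In the order Sustained, Onset, LOC, each neighbour differed by less than the larger SD over neurons of the pair. The Onset mean lay more than 1 LOC SD above the LOC mean. The mean of all pLSOs, 3.71 ± 7.12 TPM (n = 52), was 5.77 times the LOC mean, which is past a 2-fold difference. Of 10319 genes detected in at least 5% of neurons, 30.9% had a mean at least 2 times higher in pLSOs than in LOCs and 21.9% a mean at least 2 times lower, so that such a difference was common among all genes. The LOC mean rested mainly on cell_72, the LOC with 12 TPM, and without it the ratio was 16.7. Without the highest pLSO instead, the ratio was 5.03.

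On the log2(TPM + 1) scale, the mean of Kcnq3 was 0.81 higher in pLSOs than in LOCs, beside a median difference of 0.07 over the genes compared. Within pLSOs, the mean TPM of Onset neurons was 0.595 times that of Sustained neurons. This did not pass a 2-fold difference, whereas 23.8% of 10258 genes were lower and 35.4% higher by that measure.

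**Figure D2:**
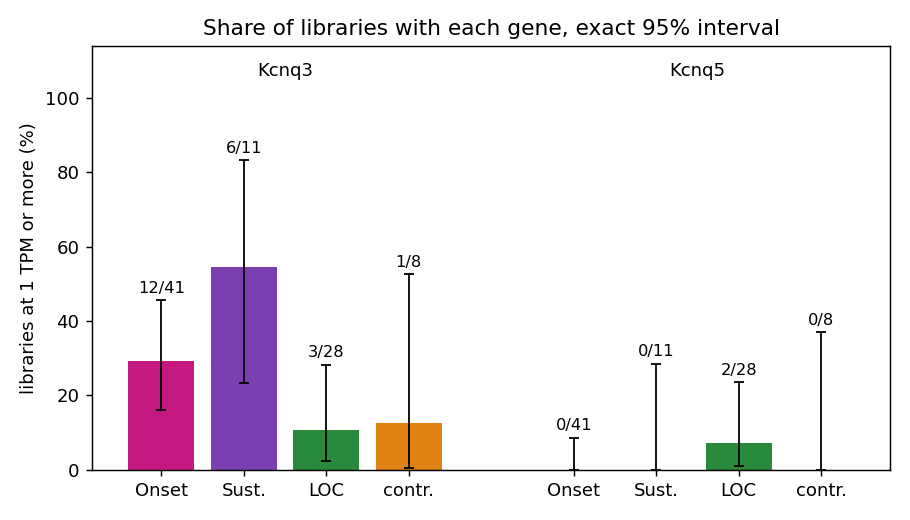
Share of libraries (%) with Kcnq3 and Kcnq5 at 1 TPM or more in Onset neurons, Sustained neurons (Sust.), LOCs and negative controls (contr.). Bars start at 0, error bars are exact 95% intervals, and the numbers above give libraries with the gene over all. For Kcnq3 the share was highest in Sustained neurons (6 of 11), and all intervals overlap.

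Kcnq5 was detected in 2 of 80 neurons, both of them LOCs. It was at 0 in 41 of 41 Onset neurons, 11 of 11 Sustained neurons and 8 of 8 negative controls. Counting error allows a share of up to 5.77% of pLSOs with Kcnq5 at 1 TPM or more, and up to 7.32% of Onset and 27.3% of Sustained neurons. Of 28 LOCs, 2 (7.14%, 0.877% to 23.5%) had it, cell_72 at 47 TPM and cell_75 at 1 TPM.

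The LOC mean of Kcnq5, 1.71 ± 8.88 TPM (n = 28), came almost entirely from cell_72 and was 0.0370 TPM without it. One more library, cell_78, had Kcnq5 at 132 TPM. It is labelled as an LOC and is 1 of the 8 libraries left out, and with all libraries as labelled 3 of 30 LOCs had Kcnq5. These 3 libraries held the LOC marker Calca, which encodes the peptide CGRP, at 1584 TPM (cell_72), 678 TPM (cell_75) and 827 TPM (cell_78). The pLSO marker Kcnh7, found in only 1 of 28 LOCs, was not detected in any of these 3. Another pLSO marker, Spp1, was at 1 TPM in cell_78 and at 0 in cell_72 and cell_75. At 2 of 80 neurons, Kcnq5 was below the 5% of neurons required for the comparison with all genes.

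Both members were found together in 1 neuron, the LOC cell_72, at 12 TPM of Kcnq3 and 47 TPM of Kcnq5. Kcnq3 without Kcnq5 was found in 20 neurons, of which 18 were pLSOs, and Kcnq5 without Kcnq3 in 1 neuron, cell_75. In 58 of 80 neurons neither was detected. All 18 pLSOs with Kcnq3 were thus without detected Kcnq5.

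Values of different genes may not share a scale as deposited. Over 5441 genes with 15 or more positive libraries, the lowest values of a gene were taken as the 10% quantile of its positive values. Their Spearman rho was -0.59 with the order of the table's rows and -0.20 with the gene's own length. Sorted gene lengths were then matched to the rows, so the first rho is that of row order alone and does not test length. Whether row order stands for length or for another trend along the rows was not tested. For the ranking of channel genes by level, each gene was rescaled from the length at its row to its own exonic length. This rescaling assumes that row order stands for length. For Kcnq3 the own length was 12.2 times the length at its row, and for Kcnq5 29.0 times. The length factor of a gene is the same in every group, and the rescaling, which also changes each library's total, moved the ratio of Kcnq3 means in pLSOs and LOCs from 5.77 to 5.42.

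Kcnq3 was then set among the other pore genes of voltage-gated potassium channels. Outside the Kcnq family, 35 other pore genes were in the table, of which 22 were found in at least 1 neuron and 13 were at 0 in every neuron. With both members included, Kcnq3 ranked 4 of 37 by the number of neurons and Kcnq5 ranked 17. This rank uses 1 TPM on the deposited scale, on which that threshold may not stand for the same level in each gene. Detected in more neurons were Kcna1 (Kv1.1, a low-threshold channel) in 51 of 80, Kcnh7 (Kv11.3, of the ERG family) in 41 and Kcnc1 (Kv3.1, a channel of fast-spiking neurons) in 24, beside 21 neurons with Kcnq3.

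These 3 genes and Kcnq3 each had the higher share in pLSOs. Kcnh7 was found in 76.9% of pLSOs and 3.57% of LOCs, Kcna1 in 75.0% and 42.9%, Kcnc1 in 34.6% and 21.4%, and Kcnq3 in 34.6% and 10.7%. Of the 12 other pore genes found in at least 5% of neurons, 9 had the higher share in pLSOs and 3 in LOCs, beside 57.4% of all 10319 genes with the higher share in pLSOs and 42% in LOCs. After rescaling to length, the mean level over all neurons was 6.28 rescaled TPM for Kcnq3 and 0.676 for Kcnq5, beside 69.6 for Kcna1, 26.0 for Kcnh7 and 8.29 for Kcnc1. Kcnq3 ranked 7 of 37 and Kcnq5 ranked 18 by this level, which holds only if row order stands for length. Across the 52 pLSOs, Spearman's rho of Kcnq3 with these 12 pore genes ran from -0.14 to 0.32, which is weak for values that are mostly 0.

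**Figure D3:**
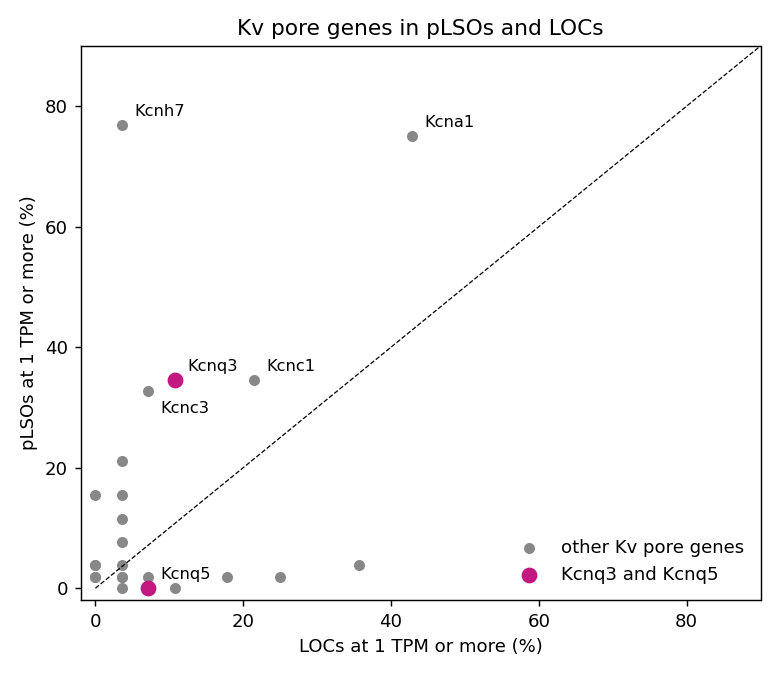
Share of LOCs (%, horizontal) and of pLSOs (%, vertical) with each voltage-gated potassium channel pore gene at 1 TPM or more; each point is a gene, with genes found in at least 20% of neurons and both members named, and the dashed line marks equal shares. Kcnq3 lies above the line at 34.6% of pLSOs and 10.7% of LOCs, and Kcnq5 below it at 0% and 7.14%.

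The Kcne genes encode single-pass accessory subunits that can bind Kv7 channels. Of 5 Kcne genes in the table, 4 (Kcne1, Kcne2, Kcne3 and Kcne4) were at 0 in every neuron. Kcne1l was found in 3 of 52 pLSOs, at 7 TPM at most, and in 0 of 28 LOCs. No Kcne gene was found in enough neurons for the comparison with all genes.

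Genes of the pathway that closes Kv7 channels were described next, from 3 lists, by the same 2-fold measure. Among 19 genes of Gq-coupled receptors, Gq proteins, phospholipase C and their regulators, 10 were found in at least 5% of neurons, of which 1 was higher and 4 were lower in pLSOs, beside 30.9% higher and 21.9% lower among all genes compared. The median of their differences in mean log2(TPM + 1) (pLSOs less LOCs) was -0.28, beside 0.07 over all genes compared. At 0 in every neuron were 5, the receptor genes Chrm5, Bdkrb2, Agtr1a and Hrh1 and the phospholipase gene Plcb2. Oxtr, the oxytocin receptor, was found in 9 of 28 LOCs and 1 of 52 pLSOs, with means of 7.82 and 0.481 TPM.

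Rgs4 and Rgs2 encode regulators of G protein signalling, which shorten Gq signals. Rgs4 was found in 17 of 52 pLSOs and 1 of 28 LOCs, with means of 11.1 and 3.68 TPM, the latter from that 1 LOC. Rgs2 was found in 32 of 52 pLSOs and 15 of 28 LOCs, at means of 69.5 and 47.3 TPM, which did not pass 2-fold.

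Of 15 genes listed for the turnover of phosphoinositides, the lipids to which PIP2 belongs, 13 were found in at least 5% of neurons. Of these 13, 4 were higher and 2 lower in pLSOs, with a median difference of 0.27. The share of higher genes was near the 30.9% among all genes compared, and with all libraries as labelled 5 were higher. The kinase genes Pi4ka and Pip5k1a, which act in the synthesis of PIP2, were each found in 24 of 52 pLSOs and 6 of 28 LOCs. Their means were 5.77 and 3.36 TPM for Pi4ka and 9.54 and 4.79 TPM for Pip5k1a, in pLSOs and LOCs, respectively, both short of 2-fold. Synj1, a phosphatase that removes PIP2 at synapses, was found in 32 of 52 pLSOs and 15 of 28 LOCs. Inpp5a, also on the list and among the 4 higher genes, degrades inositol trisphosphate and not phosphoinositides. It was found in 11 of 52 pLSOs and 2 of 28 LOCs, and its LOC mean of 9 TPM was 0.0741 TPM without the highest neuron.

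The list of Kv7 partners held 24 genes of proteins that anchor, phosphorylate or sort Kv7 channels. All 24 were found in at least 5% of neurons, with 2 higher and 4 lower in pLSOs (30.9% and 21.9% among all genes compared) and a median difference of 0.12. Sptbn4, the spectrin of the axon initial segment where Kv7 channels are held, was found in 14 of 52 pLSOs and 1 of 28 LOCs. Its mean of 57.5 TPM in LOCs came from that 1 neuron, and the pLSO mean was 49.5 TPM, so that the mean of log2(TPM + 1) was 1.35 higher in pLSOs although the mean TPM was lower. Akap5, which encodes an anchoring protein that brings protein kinase C to Kv7 channels, had 34.9 TPM in LOCs and 13.6 TPM in pLSOs. In the negative controls, 7 of 8 libraries had it, at up to 1127 TPM, and the part of RNA from outside the neuron in its level was not tested. Prkcb, a protein kinase C gene, had 9.54 TPM in LOCs and 0.692 TPM in pLSOs, and Camk2b, a calmodulin-dependent kinase gene, 7.68 and 2.44 TPM. Of the 8 negative controls, 1 had Prkcb and 3 had Camk2b. The control mean of Camk2b, 11.25 TPM, was above the LOC mean and was 0.429 TPM without the highest library.

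**Figure D4:**
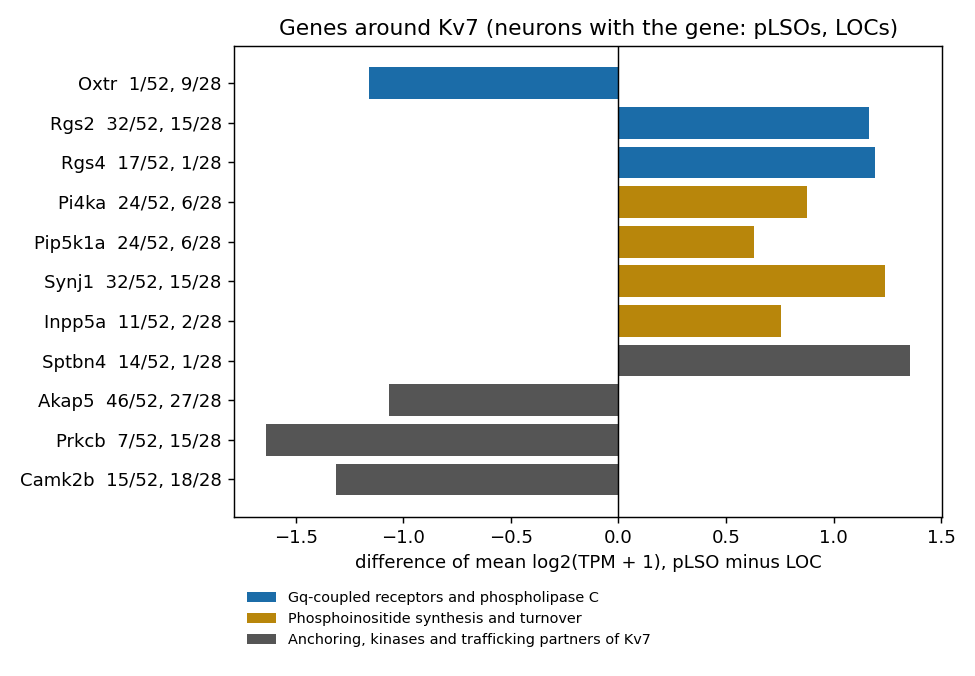
Difference in mean log2(TPM + 1) between pLSOs and LOCs for up to 4 genes of each list of genes around Kv7 channels, those with the largest differences among genes found in at least 10% of neurons. Numbers beside each gene are pLSOs and LOCs with the gene, and colours mark the lists. The 4 genes shown from the phosphoinositide list lie to the right (higher in pLSOs), and Prkcb has the largest difference towards LOCs.

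The level of Kcnq3 was then set beside the 16 electrophysiological features of the same neurons, within each group, as Spearman's rho with no test. In Onset neurons, rho ran from -0.18 to 0.40, with the highest values for the decay of spontaneous inhibitory currents (sIPSCs) (0.40, n = 40), their rise time (0.32, n = 40) and the membrane time constant (0.30, n = 41). In Sustained neurons, rho ran from -0.39 to 0.54, with the highest value for action potential threshold (n = 11). In LOCs, rho ran from -0.32 (input resistance, n = 27) to 0.36 (capacitance, n = 27) and rested on the 3 neurons with Kcnq3. These 3 LOCs had no resting potential in the labels, so no rho was given for it.

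Kv7 channels are open near rest, which makes resting potential, input resistance and rheobase the features closest to their role. Rheobase is the smallest current that elicits an action potential. With resting potential, Spearman's rho of Kcnq3 was 0.17 in Onset neurons and 0.11 in Sustained neurons, with none given for LOCs. With input resistance, Spearman's rho of Kcnq3 was 0.28 in Onset neurons, -0.03 in Sustained neurons and -0.32 in LOCs. With rheobase it was -0.04, -0.01 and -0.26. With all libraries as labelled, the values in Sustained neurons were 0.06 for input resistance and -0.15 for rheobase. Of 15 features with a value in all 3 groups, 4 had the same sign in each (membrane time constant, capacitance, rheobase and the amplitude of spontaneous excitatory currents). With Kcnq3 at 0 in most neurons of 2 of the groups, correlations of this size are no finding.

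**Figure D5:**
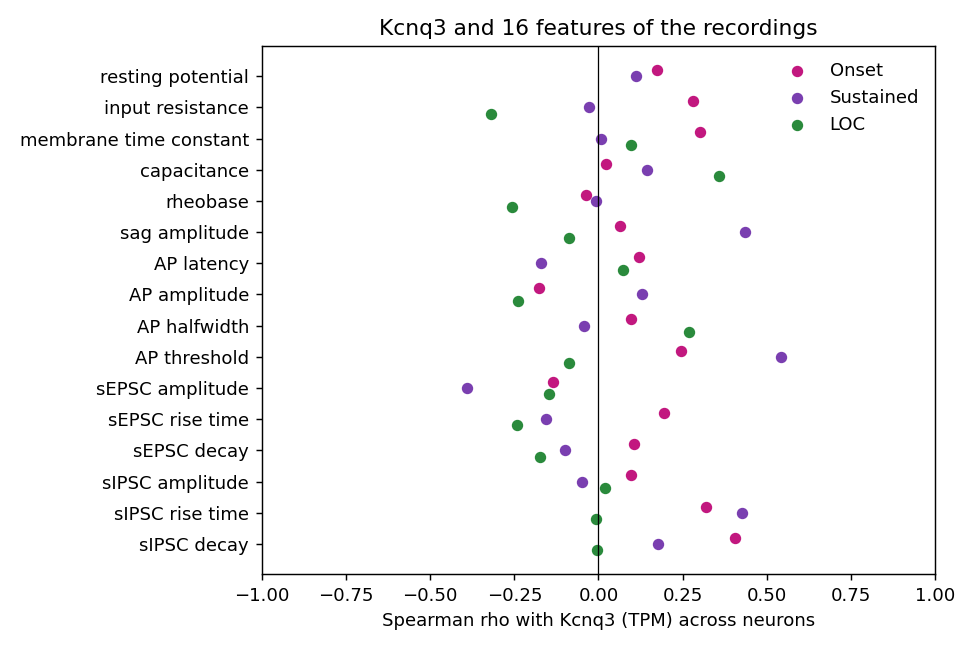
Spearman's rho between the TPM of Kcnq3 and each of 16 features of the recordings (AP, action potential; sEPSC and sIPSC, spontaneous excitatory and inhibitory postsynaptic currents) across the neurons of each group, with no test. Points are groups and the vertical line marks 0. The values lie between -0.39 and 0.54 and differ in sign between groups for most features.

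The genes whose level was most like that of Kcnq3 across the 80 neurons, among 4778 other genes found in at least 20% of neurons, were Syt1 (rho of 0.40), Cdh4 (0.40), Ranbp6 (0.39), Slco3a1 (0.38) and Rasa4 (0.38). Syt1 is the calcium sensor of transmitter release and Cdh4 a cadherin. All 5 had the higher share in pLSOs, as did Kcnq3, which they were chosen to resemble, and 58.4% of the genes ranked (40.2% had the higher share in LOCs). Cdh4 was found in 34.6% of pLSOs and 0% of LOCs. Sptbn4 had a rho of 0.38, but it was found in too few neurons to be ranked. The points share libraries and depth, and the number of detected genes had a rho of 0.14 with Kcnq3. For Kcnq5, with 2 neurons, no such genes are given.

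Markers of other cells were set beside Kcnq3 because tissue touched by the pipette can add RNA. Across the 80 neurons, the summed level of 6 astrocyte markers had a rho of -0.20 with Kcnq3, that of 5 oligodendrocyte markers -0.06, that of 5 microglia markers -0.06 and that of 4 endothelial markers 0.03. The oligodendrocyte markers ranged from 0 to 6658 TPM in Onset neurons, from 0 to 1453 TPM in Sustained neurons, from 1 to 5083 TPM in LOCs and from 389 to 7794 TPM in negative controls. Of the 3 LOCs with Kcnq3, cell_62 had 1749 TPM of the myelin gene Mbp, cell_73 had 153 TPM and cell_72 had 10 TPM. The microglia markers, all 5 of which were found in each group of neurons, had a median of 174 TPM (0 to 1285) in Sustained neurons, the group with the highest share of Kcnq3, beside 1 TPM (0 to 1783) in Onset neurons, 5 TPM (0 to 741) in LOCs and 0 (0 to 181) in negative controls. The summed level of 6 neuron markers had a rho of -0.18 with Kcnq3 across the 80 neurons. Its median was 3700.5 TPM in negative controls, 2311 TPM in Onset neurons, 1498 TPM in Sustained neurons and 1686.5 TPM in LOCs. In negative controls, the pLSO markers had a median of 22.5 TPM and the LOC markers one of 7.5 TPM. Markers of neurons were thus present in negative controls too. The part of RNA from other cells, neighbouring neurons included, in the values of Kcnq3 was not tested.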

How the data were processed

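Single LSO neurons and negative controls were sequenced after a modified Smart-seq2 protocol. Per the submitters' processing notes, reads were handled with FastQC, Trim Galore 0.4.2, STAR, Picard 1.115 and featureCounts on mm10. The score values are TPM as deposited by the authors, rounded to whole numbers, with library totals from 999773 to 1000026 TPM. No read counts were used, so the depth of each library was not taken into account and limits cover numbers of neurons only. The authors report fewer mapped reads in negative controls than in neurons. The authors' Gencode release is earlier than vM21, from which names, lengths and sequences were taken here (37570 of 38887 genes).

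Groups follow the firing pattern in the labels. The rule that chose the genes left out 8 libraries, which were put back as an alternative. Detection was 1 TPM or more, group values were arithmetic means, and genes in at least 5% of neurons were compared at 2-fold. Shares have exact Clopper-Pearson 95% intervals, and for 0 of n the limit is 3 over n. The ratio and rank calculations were run on simulated data for genes detected in many neurons, with a copied gene for the rank check. This checks the code and does not cover genes at 0 in most neurons, such as Kcnq3 and Kcnq5. Members, lists and markers were chosen with earlier results of these data known. Named were the members, the Kcne genes, the 3 other pore genes found in most neurons, up to 4 genes per list with the largest differences among those in at least 10% of neurons, and the 5 genes most like a member among those in at least 20%; Chrm5, Bdkrb2, Agtr1a, Hrh1, Plcb2, and the markers were named after their values were seen. The rule also covered other genes, among them the other Kcnq genes, which are not reported here. SciPy 1.17.1, pandas 2.3.3 and NumPy 2.4.6 under Python 3.11.15 were used, with matplotlib 3.10.9 for plots.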

Additional observations from a re-analysis of the deposited data

Results flagged for a closer look

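Among the 8 negative controls, 1 library (NC2) had Kcnq3 at 1 TPM and the other 7 were at 0, so that it stood apart from the rest of its group. With the others at 0, any detection would have done so, and 1 TPM is the lowest value the table can show above 0. Kcnq5 was at 132 TPM in cell_78, a library labelled as an LOC that was left out of the comparisons, above the highest Kcnq5 value of 47 TPM in the neurons compared. The negative controls were at 0 for Kcnq5. In cell_78, Kcnq3 was at 0, Calca was at 827 TPM and 2052 genes were detected.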

How the results depend on the processing

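No paired analysis was possible because no result comes from a test. Of 137 shares, ratios, differences, counts and values of rho recomputed under another setting, 118 stayed within the limits set for them (the exact interval for shares, 1 SD over neurons for log2 differences, 1.5 times for ratios and counts, 0.1 for rho), and no ratio or difference between groups turned. Detection at 10 TPM lowered the share of neurons with Kcnq3 to 14.6% of Onset and 18.2% of Sustained neurons. For means the SD over neurons exceeds the mean and is no useful limit, and 11 of 20 recomputed means moved by over 1.5 times. Rescaling to gene length raised the mean of Kcnq3 to 7.66 in Onset neurons, 12.96 in Sustained neurons and 1.62 in LOCs. The mean of log2(TPM + 1) turned back to TPM gave 0.867, 2.29 and 0.198 in the same order, and 0.177 for Kcnq5 in LOCs. With log2(TPM + 10), the log2 difference of Kcnq3 fell from 0.81 to 0.26 between pLSOs and LOCs and moved from -0.82 to -0.22 between Onset and Sustained neurons. Without the highest neuron, cell_72, the LOC means were 0.222 for Kcnq3 and 0.0370 for Kcnq5. With values under 10 TPM set to 0, the Sustained mean of Kcnq3 was 3.55. Without cell_72, the LOC of highest Kcnq3, the ratio of pLSO to LOC means was 16.7, and without the highest pLSO instead it was 5.03. With the mean of log2(TPM + 1) turned back to TPM, the ratio of Onset to Sustained neurons was 0.378. At 4-fold, 19.0% of genes were higher and 10.0% lower in pLSOs than in LOCs. The causes of these shifts were not tested, apart from the stricter threshold and the rescaling, which act by construction. By itself the length factor lowers the values of Kcnq3, and their rise came from setting each library's total anew. With all libraries as labelled, the mean of Kcnq5 in LOCs was 6 TPM, because of cell_78. Of 99 recomputed values of rho, 13 moved by 0.1 or more and 8 changed sign, none of them above 0.147 in size at first. Values of 1 TPM lie at the limit of the rounding, and a gene at 0 may be present below what 1 neuron's library shows.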
